A study of Homo sapiens with 8 samples.

Results

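The broad regions described here are 108 stretches of open chromatin, each at least 2000 bp wide, that were called in all 8 ATAC-seq libraries of 2 oral squamous carcinoma cell lines. To find them, the peaks of the 8 lists on chromosomes 1 to 22 were merged wherever they shared at least 1 bp. A merged region was kept if every list had a peak in it and its merged width reached 2000 bp. The 108 regions came from 12485 regions called in all 8 libraries and from 78629 merged regions in all. The members were thus chosen by 2 measured values, the calls in all 8 libraries and the merged width, which are given below as a description only, without a test.

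ATAC-seq uses the Tn5 transposase, which inserts sequencing adapters where DNA is not packed in nucleosomes, so that reads pile up over open promoters and enhancers. A typical open site is about as wide as the gap between a few nucleosomes. Wider open stretches are known from promoters of active genes, where a nucleosome-depleted start site is joined by flanking or divergent elements, and from enhancers that lie side by side. A peak caller can return such a stretch as a single wide peak or as several peaks with short breaks, and which of these it returns depends on depth and enrichment as well as on the chromatin.

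The groups were HSC-3 given 8 Gy, HSC-3 at 0 Gy, KOSC-2 given 8 Gy and KOSC-2 at 0 Gy, with 2 libraries each. Cells were frozen 24 hours after irradiation or after no irradiation. The labels call HSC-3 radioresistant and KOSC-2 radiosensitive, and the series set irradiated against unirradiated cells of lines that differ in radiosensitivity. With 1 line per class, line and radiosensitivity cannot be told apart. Whether the paired libraries are separate cultures is not in the labels. The p-values therefore cover only library-to-library spread, which may be technical. Regions are given by position on hg19, and the genes at these positions and the labelled cell type were not analysed here, because no gene annotation or sequence of that build was used.

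The lists held between 21955 and 50448 peaks on chromosomes 1 to 22. Depth is given as the genome-wide background in each list, which ranged from 20.2 to 64.8 reads per 10 kb. Enrichment was taken as the median summit pileup of the regions called in all 8 libraries over the background expected in 300 bp, the fragment length. It was 21.9 in HSC-3 8 Gy replicate 1, 34.7 in HSC-3 0 Gy replicate 2 and 26.2 in KOSC-2 0 Gy replicate 1. In the other 5 libraries it was 50.4 to 67.3. These HSC-3 libraries also had the shortest lists, with 21955 and 22860 peaks. Several comparisons of length under peaks, and the share of bases under peaks between the lines, are also given below without these 3 libraries. Other results, such as ranks of the summit pileup, reads around the summit and summit positions, are not given without them.

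Most broad regions were only a little wider than the limit. The median width was 2133 bp, with quartiles of 2058 and 2253 bp, and 2 regions exceeded 2500 bp. These 2 were chromosome 9, 2014706 to 2017839 (3134 bp) and chromosome 1, 167189193 to 167191755 (2563 bp). The members just inside the limit were chromosome 5, 102090036 to 102092035 (2000 bp), chromosome 13, 47127017 to 47129017 (2001 bp) and chromosome 4, 78077674 to 78079675 (2002 bp). Just outside it lay chromosome 3, 152878197 to 152880195 (1999 bp), chromosome 8, 53625648 to 53627642 (1995 bp) and chromosome 8, 49320025 to 49322015 (1991 bp). On the mean percentile of fold enrichment, which runs from 0 to 100 within a library, the 3 inside stood at 23.9, 10.9 and 44.7 and the 3 outside at 16.4, 52.8 and 37.6.

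The merged width was a union over libraries, and a few libraries set it. Of the 216 outer edges of the 108 regions, 57 were set by a single HSC-3 library, 149 by a single KOSC-2 library, and 10 were shared by several libraries. The KOSC-2 8 Gy library replicate 1 alone set 67 edges. Without it, 71 of the 108 regions still met the rule. Leaving out any other library gave 95 to 120 broad regions. The outermost library passed the next by a median of 24 bp and passed the median library by a median of 121 bp.

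Another 28 merged regions were as wide but were not called everywhere. Of the 136 regions of at least 2000 bp, 108 were called in 8 libraries, 16 in 7, 8 in 6, 3 in 5 and 1 in 4. In 26 of the 28 the missing calls were all in HSC-3. HSC-3 0 Gy replicate 2 lacked 23 of the 28 and HSC-3 8 Gy replicate 1 lacked 13. Both have short lists.

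The broad regions were wide without being strong by the authors' fold enrichment. The authors deposited, for each peak, how many fold its summit exceeds the library's own local background, and this fold of each region was ranked among the 12485 regions called in all 8 libraries. The mean percentile over the 8 libraries had a median of 18.9 in the broad regions and of 49.8 in the 12377 narrower ones. In 103 of 108 broad regions (95.4%) it was below 50, as in 50.3% of the narrower regions. The deposited −log10 p, which grows with the number of reads as well as with the fold, ranked the broad regions at a median percentile of 53.8, against 47.7 in the narrower regions.

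The low fold went with many reads around the summit and not with a low summit. Fold and p together fix the number of reads at the summit (the pileup) and in the 10 kb window around it against which it was tested. The summit pileup of the broad regions stood at a median percentile of 70.2, against 48.3 in the narrower regions, and 85 of 108 were above 50. Reads in the 10 kb window stood at a median percentile of 88.8, against 49.2, and 104 of 108 were above 50. At the summit lay a median of 22.9% of the reads in the window (quartiles 20.2 and 26.3%), against 36.1% (29.5 and 42.9%) in narrower regions. Reads in the window were solved from the fold and the pileup, so a low fold with a high pileup gives many reads there by calculation. They are thus no separate observation. The window contains the region itself, so reads of a wide region count in its own background. How much of the low fold rank this makes was not tested.

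**Figure D1:**
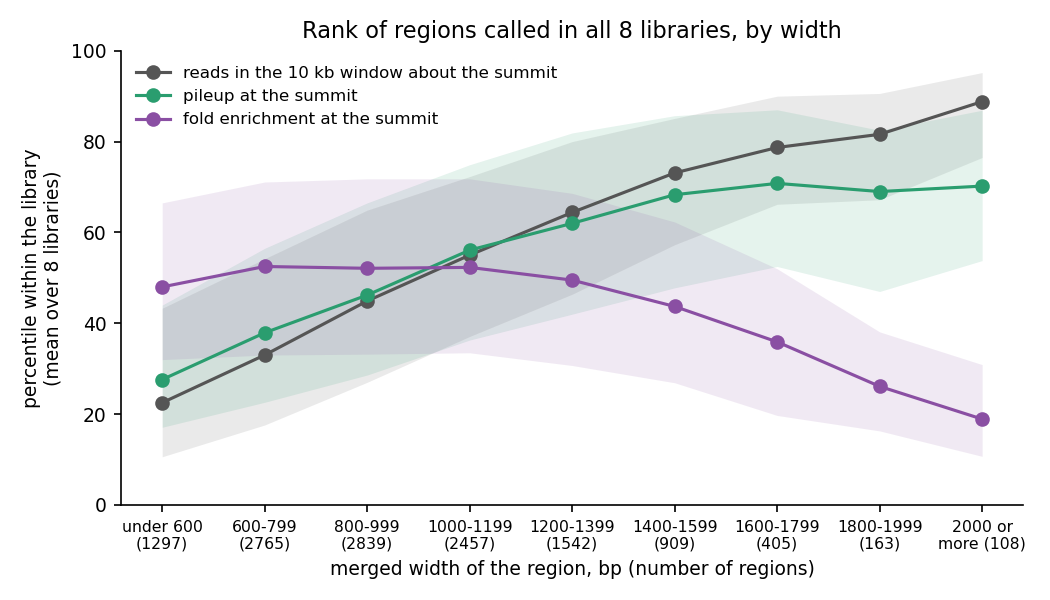
Median percentile within the library (vertical axis, mean of 8 libraries, 0 to 100) of the reads in the 10 kb window, the summit pileup and the fold enrichment, for the 12485 regions called in all 8 libraries in 9 classes of merged width (horizontal axis, bp). Shaded bands run from the first to the third quartile. Reads in the window increase from 22.5 in the narrowest class to 88.8 in the broad regions, while fold enrichment decreases to 18.9.

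The change of rank with width was gradual and was not peculiar to the limit of 2000 bp. The plot of ranks by width shows that the median percentile of fold was 52.3 in regions from 1000 to under 1200 bp, 43.7 from 1400 to under 1600 bp, 35.9 from 1600 to under 1800 bp and 26.1 from 1800 to under 2000 bp. Summit pileup levelled off, with 68.3, 70.8, 69.0 and 70.2 in the last 4 classes. Reads in the window continued upward, with 73.1, 78.7, 81.6 and 88.8. Width is partly made of the same reads, so these are descriptions of how the measures go together across regions that share libraries, with no test.

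The pattern was present in every library. The median summit pileup of the broad regions was 38, 54.5, 56.5 and 26 reads in HSC-3 (both 8 Gy libraries, then both 0 Gy libraries, by replicate number) and 86.5, 72, 65 and 69 reads in KOSC-2 in the same order. Over all 12485 regions it was 28, 39, 42 and 21 reads in HSC-3 and 62, 49, 51 and 52 reads in KOSC-2. The broad regions were thus above the common level in all 8 libraries on pileup. Their median fold was 5.81, 7.12, 7.04 and 5.91 in HSC-3 and 6.99, 7.62, 6.16 and 7.17 in KOSC-2. Over all 12485 regions the median fold was 6.89, 9.82, 9.77 and 7.54 in HSC-3 and 10.0, 10.6, 8.09 and 10.2 in KOSC-2, above that of the broad regions in each library. Their median percentile of fold was 11.7 to 14.6 in the 5 libraries of higher enrichment and 19.4 to 30.7 in the 3 of lowest enrichment.

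Within a single library the regions were often narrower than their merged width. The median covered length, which is the number of bases of a region under peaks of a library, was 1097.5 and 1466 bp in HSC-3 at 8 Gy (replicates 1 and 2) and 1532.5 and 800 bp in HSC-3 at 0 Gy. In KOSC-2 it was 1962 and 1633.5 bp at 8 Gy and 1647.5 and 1703.5 bp at 0 Gy, in the same order of replicates. All 4 KOSC-2 values lay above all 4 HSC-3 values, which carries no weight of its own because KOSC-2 peaks set most edges. Relative to the median of all regions called in all 8 libraries, the broad regions were 2.05, 2.11, 2.16 and 1.61 times as long in HSC-3 and 2.34, 2.22, 2.28 and 2.26 times as long in KOSC-2.

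**Figure D2:**
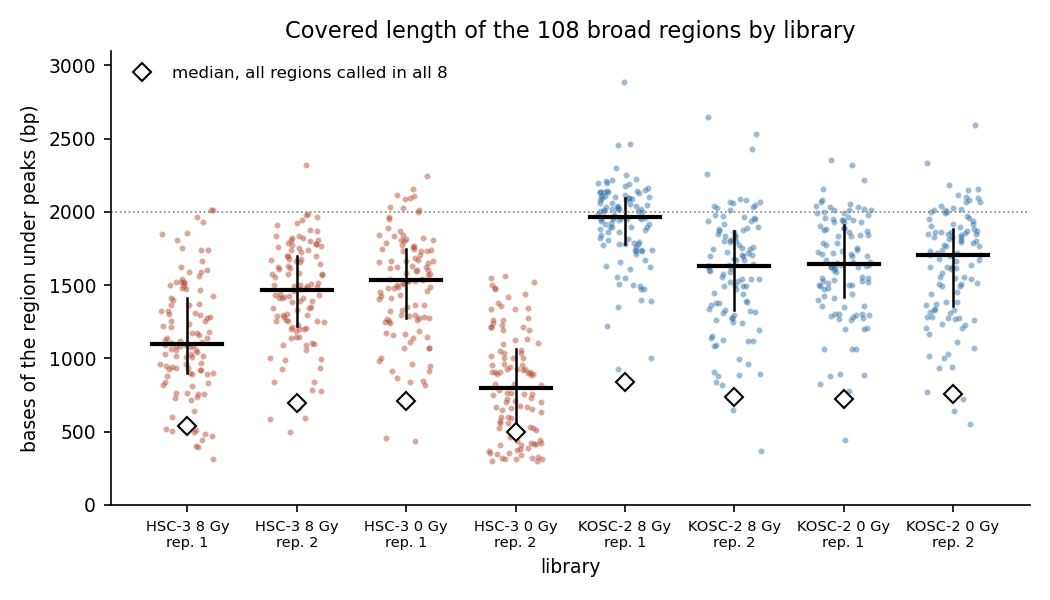
Bases under peaks (vertical axis, bp) of each of the 108 broad regions in each library (horizontal axis); each point is a region, the bar is the median with a line from the first to the third quartile, the diamond is the median of all 12485 regions called in all 8 libraries, and the dotted line marks 2000 bp. Medians run from 800 bp in the HSC-3 0 Gy library replicate 2 to 1962 bp in the KOSC-2 8 Gy library replicate 1, above the diamond in every library.

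No region was covered over 2000 bp in all 8 lists, and most were in at most 1. In 45 of the 108 regions no library covered 2000 bp, in 39 a single library did, in 13 it was 2 libraries, in 6 it was 3, in 4 it was 4 and in 1 it was 5. That last region, chromosome 3, 113463982 to 113466104, was covered over 1102, 1344, 2094 and 886 bp in HSC-3 (both 8 Gy libraries, then both 0 Gy libraries, by replicate number) and over 2079, 2037, 2014 and 2026 bp in KOSC-2. All 4 KOSC-2 libraries and 1 HSC-3 library passed 2000 bp there. The KOSC-2 8 Gy library replicate 1 covered 48 regions over at least 2000 bp, against 0 to 16 in the other 7 libraries.

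Most of the regions had a shared core, with variable flanks. Of their 234478 bases, 29.7% lay under a peak in all 8 libraries and 9.87% in a single library, against 44.8% and 9.58% in the narrower regions called everywhere. The core covered by all 8 libraries had a median length of 633 bp (29.3% of a region) and reached 1456 bp at chromosome 1, 183440133 to 183442282. The core was 0 bp in 6 of the 108 regions, and in 165 of the 12377 narrower ones. There the libraries had their peaks in different places within the merged stretch. The broad regions were chosen by the width of a union over lists, so a smaller shared part follows in part from the choice.

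Flanks that separated the lines were mostly KOSC-2 flanks. Bases under peaks in 4 of 4 KOSC-2 libraries and 0 of 4 HSC-3 libraries summed to 7245 (3.09% of the bases of the broad regions, 1.24% in narrower regions) and lay in 46 of the 108 regions (42.6%, against 22.4% of narrower regions). The reverse, 4 of 4 HSC-3 libraries and 0 of 4 KOSC-2 libraries, held for 198 bases (0.0844%, 0.0433% in narrower regions) in 2 regions (1.85%, against 1.14% of narrower regions). Bases under peaks in all 4 libraries at 8 Gy and in 0 of 4 at 0 Gy numbered 351 (0.15% of bases, 0.0632% in narrower regions). They lay in 4 regions (3.7%, against 1.98% of narrower regions). Those under peaks in all 4 at 0 Gy and in 0 of 4 at 8 Gy numbered 105 (0.0448% of bases, 0.0166% in narrower regions). They lay in 2 regions (1.85%, against 0.986% of narrower regions). The shorter HSC-3 lists move with this difference between the lines, and their part in it was not tested at the level of bases. Single KOSC-2 libraries set 149 of the 216 outer edges, so the choice of members favours KOSC-2 flanks. A wider region also has more room for such bases (median width 2133 bp, against 948 bp in narrower regions). The shares of broad and narrower regions are thus given as a description, without a test.

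The authors' lists broke up most of the broad regions in at least 1 library. Only 13 of 108 (12.0%) had exactly 1 peak in each of the 8 lists, against 86.4% of the narrower regions. In 42 regions at least 6 libraries had a single peak (unbroken regions), in 22 at least 6 libraries had 2 or more peaks (split regions), and 44 were mixed. Unbroken regions had the longer core, with a median of 811.5 bp against 517.5 bp in split regions, and a higher summit pileup, at a median percentile of 78.5 against 63.7. Their median percentiles of fold were 19.5 in unbroken and 16.6 in split regions.

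A break between peaks seldom had a fixed place. Among the 51 regions with a break in at least 4 libraries, the largest break had a median width of 348.5 bp, and its centre lay within 200 bp in all libraries that had one in 15 regions. Only 2 regions were split in all 8 lists, chromosome 13, 37573240 to 37575318 and chromosome 14, 55031785 to 55034033. The first had exactly 2 peaks in every list, and its strongest summits ranged over 1378 bp because libraries of both lines put the strongest summit in either peak. The second had 2 peaks in 6 lists and 3 peaks in replicate 1 at 0 Gy of each line.

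In many broad regions the strongest summit lay in different places between libraries. The strongest summits of the 8 libraries ranged over a median of 470 bp, against 107 bp in narrower regions, although 29 regions (26.9%, against 46.4% of narrower ones) had all 8 within 100 bp. With strongest summits more than 150 bp apart counted as separate, 47 regions had 1 position, 43 had 2 and 16 had 3. Of the 12377 narrower regions, 10356 had 1 position, 1757 had 2 and 243 had 3. A longer region leaves more room for summits to move, so these counts follow in part from the width.

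In 2 regions the lines used different summits. At chromosome 16, 77245976 to 77248059 the 4 HSC-3 summits lay within 74 bp and the 4 KOSC-2 summits within 105 bp, with 821 bp between the 2 sets. At chromosome 12, 6715722 to 6717883 the 4 HSC-3 summits lay within 333 bp and the 4 KOSC-2 summits within 146 bp, with 577 bp between the sets, and 179 of the 198 bases found only in HSC-3 belonged to this region. A distance of over 300 bp between the lines was found in 1.85% of the broad regions and in 0.0889% of the narrower ones, most of which are too short to show it easily. These 2 regions were singled out after their values were seen, and no test was run on them.

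The regions with the longest mean covered length included unbroken and split ones. Chromosome 12, 30947615 to 30949965 averaged 1901 bp over the 8 libraries, with a single peak in each list and 8 summits within 50 bp. It was covered over 2016, 1725, 2244 and 1360 bp in HSC-3 (both 8 Gy libraries, then both 0 Gy libraries, by replicate number) and over 2097, 2070, 1867 and 1831 bp in KOSC-2. The lines overlapped there, and only the HSC-3 0 Gy library replicate 2 was short. Chromosome 14, 21150449 to 21152823 averaged 1876 bp but had 1 to 3 peaks per list and the lowest ranks of fold among the named regions, at a mean percentile of 2.15, where the deposited fold was 4.12 to 4.98. Chromosome 13, 74707892 to 74710114 averaged 1869 bp, chromosome 11, 101980555 to 101983052 averaged 1861 bp and chromosome 19, 54693091 to 54695266 averaged 1855 bp. The chromosome 19 region had a core of 1395 bp under all 8 lists, which is 64.1% of its width.

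The regions with the shortest mean covered length were not alike in how the lists made up their width. Chromosome 2, 217236532 to 217238664 averaged 724.1 bp, had a core of 0 bp, and its strongest summits ranged over 1812 bp. Its covered lengths were 731, 1510, 845 and 322 bp in HSC-3 and 929, 371, 443 and 642 bp in KOSC-2, in the same order of libraries. Chromosome 5, 9544566 to 9546904 averaged 933.4 bp and was wide through a single list, the KOSC-2 0 Gy library replicate 1 with 2317 bp, against 414 to 1004 bp in the other 7. The others of the shortest 5 were chromosome 4, 77869944 to 77872047 (918.5 bp), chromosome 11, 64036057 to 64038091 (968.6 bp) and chromosome 2, 222436446 to 222438534 (1032 bp).

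The broad regions of highest fold stood near the middle of all regions. The highest mean percentile of fold was 61.4, at chromosome 16, 46722191 to 46724239, with a fold of 8.49 to 11.4. This region had a single peak in every list and 8 summits within 24 bp, the smallest range of all 108. Its summit pileup was 61, 108, 103 and 55 reads in HSC-3 and 157, 126, 114 and 126 reads in KOSC-2. Chromosome 2, 222436446 to 222438534 followed with a mean percentile of 55.7, chromosome 6, 151711060 to 151713117 with 55.3, chromosome 1, 185285278 to 185287389 with 52.5 and chromosome 14, 60714656 to 60716709 with 52.0. These were the 5 broad regions above 50.

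The broad regions were spread over 21 of the 22 chromosomes without forming clusters. Chromosome 4 held 14, chromosome 1 held 11, chromosome 13 held 10 and chromosome 14 held 9. Per 1000 regions called in all 8 libraries, there were 30.3 on chromosome 13, 23.3 on chromosome 4 and 16.1 on chromosome 14, against 8.65 over all chromosomes, 2.67 on chromosome 10, 2.54 on chromosome 19 and 0 on chromosome 20. Counts per chromosome are small, and the order was not tested. No broad region lay within 100 kb of another, and 19 had another within 1000 kb. The closest pair, chromosome 4, 139935441 to 139937452 and 140097353 to 140099490, was 160 kb apart.

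Their surroundings resembled those of the narrower regions. The nearest neighbour called in all 8 lists lay at a median of 49.4 kb (quartiles 23 and 77 kb), against 40.8 kb (17.7 and 91.6 kb) for narrower regions. The nearest neighbour called in any list lay at 11.5 kb, against 8.63 kb, and both kinds had a median of 4 regions within 50 kb. At chromosome 13, 91999421 to 92001537 the neighbour called in all 8 lists was 3200 kb away, the largest such distance among the broad regions.

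The first comparison was between the lines. Covered length was divided by the median of its library over the 12485 regions, which takes out differences that touch all regions of a library, and its log2 was compared with limma, with Benjamini-Hochberg adjustment over the 12485 regions and a threshold of 0.05. In HSC-3, 4 broad regions were shorter than in KOSC-2 and 0 were longer. Over all regions 0.617% passed as shorter and 0.569% as longer, or 148 regions (1.19%) in all. At an unadjusted limma p under 0.05, 23 broad regions were shorter and 2 longer in HSC-3, against 7.27% and 11.5% of all regions. The median difference was -0.19 on the log2 scale in the broad regions and 0.08 in all regions, with 70 broad regions below 0 and 38 above. With 1 library left out at a time, the median of the broad regions ran from -0.27 (without HSC-3 0 Gy replicate 1) to -0.07 (without HSC-3 0 Gy replicate 2). Without the 3 libraries of lowest enrichment it was -0.02, against 0.04 in all regions. KOSC-2 peaks set most of the outer edges that made a region wide, so the choice of members favours shorter values in HSC-3. Covered length and merged width are built from the same peaks, so neither the count nor the p-value of a single broad region is independent evidence, and the regions that passed are described below by their values.

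**Figure D3:**
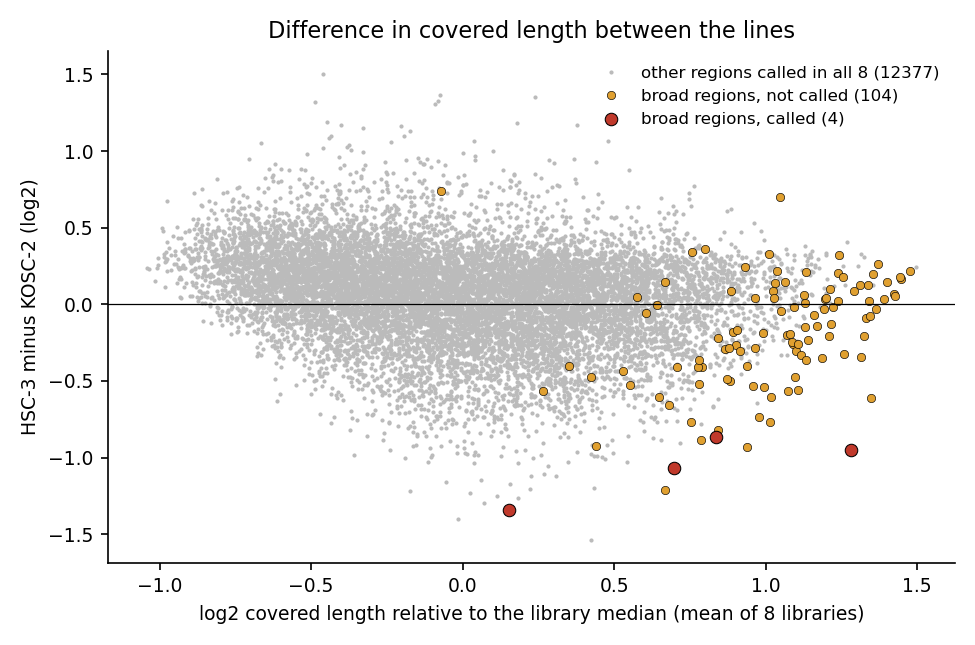
Difference in log2 covered length between HSC-3 and KOSC-2 (vertical axis, HSC-3 minus KOSC-2) against the mean log2 covered length relative to the library median (horizontal axis) for the 12485 regions called in all 8 libraries. Broad regions lie to the right, and the 4 that passed the limma threshold lie below 0, between -1.34 and -0.87.

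The region that differed most was chromosome 4, 77869944 to 77872047. It was covered over 316, 495, 456 and 438 bp in HSC-3 (both 8 Gy libraries, then both 0 Gy libraries, by replicate number) and over 2104, 1279, 878 and 1382 bp in KOSC-2 in the same order. The lines did not overlap, and the widest value came from the KOSC-2 8 Gy library replicate 1, whose single peak spanned the whole region. The means were 426.2 ± 77.3 bp in HSC-3 and 1411 ± 511 bp in KOSC-2 (SD, n = 4 libraries each), and the relative log2 difference was -1.34. The KOSC-2 peaks alone made this region wide enough to be a member. Each HSC-3 list had a single short peak near the middle of the region, and the 2 KOSC-2 0 Gy lists had that peak and 1 or 2 more beside it.

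Chromosome 16, 28833842 to 28835993 had a further stretch under peaks in the KOSC-2 lists that was under none in the HSC-3 lists. Its covered lengths were 486, 998, 822 and 517 bp in HSC-3 and 2139, 1799, 1499 and 1766 bp in KOSC-2, in the same order, with no overlap. In KOSC-2, 3 lists had 2 separate peaks and a single peak spanned both places in 8 Gy replicate 1, while all 4 HSC-3 lists had the right-hand peak alone. In this region 701 bases were under peaks in all 4 KOSC-2 lists and in 0 HSC-3 lists. The relative log2 difference was -1.07.

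Chromosome 3, 143689884 to 143692235 was a single peak in all 8 lists, longer and higher in KOSC-2. It was covered over 919, 929, 915 and 514 bp in HSC-3 and over 2143, 1707, 1712 and 1814 bp in KOSC-2, with no overlap, and its summit held 27, 31, 30 and 16 reads in HSC-3 and 133, 99, 103 and 119 reads in KOSC-2. The relative log2 difference in covered length was -0.87.

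The widest region of all, chromosome 9, 2014706 to 2017839, held a peak at its left end in all 8 lists and more peaks to the right. The left peak had the strongest summit in each list, with pileups of 99, 151, 147 and 68 reads in HSC-3 and 191, 167, 135 and 181 reads in KOSC-2. These summits lay within 54 bp, and the mean percentile of pileup was 99.7. To the right the KOSC-2 lists had 1 to 3 more peaks, and in HSC-3 the first 3 lists had 1 more and the 0 Gy library replicate 2 had none. Covered lengths were 1484, 1258, 1186 and 556 bp in HSC-3 and 2888, 2648, 2215 and 2591 bp in KOSC-2, a relative log2 difference of -0.95.

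**Figure D4:**
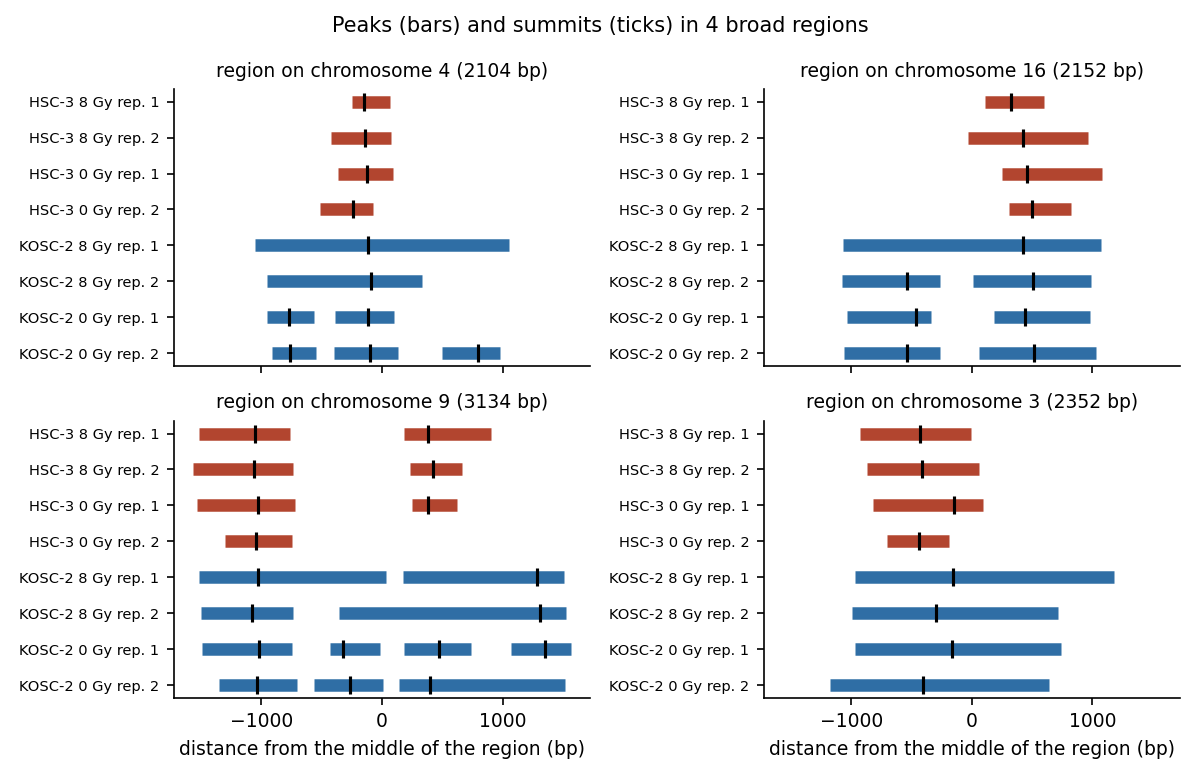
Peaks (bars) and their summits (ticks) of the 8 lists, HSC-3 above KOSC-2, in the 4 broad regions that passed the threshold between the lines; the horizontal axis is the distance from the middle of the region in bp. HSC-3 peaks cover 316 to 1484 bp and KOSC-2 peaks 878 to 2888 bp of these regions.

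These calls depended on single libraries, on the length of the lists and on the measure. With lists of equal length, 4 of 90 broad regions passed, but only 1 of these 4, the chromosome 3 region, was among them. The adjusted limma p was 0.0716 on chromosome 4 (log2 difference -0.77), 0.0876 on chromosome 16 (-0.84) and 0.101 on chromosome 9 (-1.04). With the widest peak in place of all bases, 7 passed and again only the chromosome 3 region was shared. The adjusted limma p was then 0.0649 on chromosome 4 (log2 difference -0.77), 0.351 on chromosome 16 (-0.40) and 0.224 on chromosome 9 (-0.50). The count of 4 was 2 without HSC-3 8 Gy replicate 1, 12 without HSC-3 0 Gy replicate 1, 1 without HSC-3 0 Gy replicate 2 and 1 without KOSC-2 8 Gy replicate 2. With KOSC-2 8 Gy replicate 1 left out, 0 broad regions and 8 of all regions passed, and the adjusted limma p of these 4 regions became 0.0544, 0.0628, 0.0941 and 0.0956, with log2 differences of -1.21, -1.05, -0.83 and -0.97. Without the 3 libraries of lowest enrichment, 7 broad regions were shorter in HSC-3 and 3 were longer, among 867 of all regions that passed. The 4 regions were among these 7. That fit was chosen after seeing the data, keeps 5 libraries in 4 groups and takes its spread from KOSC-2 at 8 Gy alone. The single libraries are assumed to vary alike, so its p-values are weakly based. Every fit that left out a library kept the 108 broad regions merged from all 8 lists.

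No broad region passed as longer in HSC-3 with all libraries. The nearest was chromosome 4, 128702775 to 128704794, covered over 1930, 1763, 1527 and 1216 bp in HSC-3 and over 1402, 842, 1527 and 1283 bp in KOSC-2, where the lines overlapped. Its log2 difference was 0.70 (limma, adjusted p = 0.0869), and 0.61 without the 3 libraries of lowest enrichment. At chromosome 2, 217236532 to 217238664 the difference was 0.74 (adjusted p = 0.192), and 1.01 (adjusted p = 6.49e-05) without these 3 libraries. At chromosome 2, 178128122 to 178130207 it was 0.32 (adjusted p = 0.311).

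The rank of the fold within a library separated the lines less. With limma on the percentiles, 0 broad regions passed, against 0.00801% of all regions (a single region). At an unadjusted limma p under 0.05, 9 broad regions had a higher and 1 a lower rank in HSC-3, against 6.97% and 6.91% of all regions. The largest rank differences among the named regions were 37.13 percentile points at chromosome 9, 2014706 to 2017839 (adjusted p = 0.158), 31.59 at chromosome 6, 54711052 to 54713428 (adjusted p = 0.228) and 30.31 at chromosome 14, 60714656 to 60716709 (adjusted p = 0.132), all higher in HSC-3. The chromosome 9 region stood at percentiles of 59.8, 40.9, 45.3 and 65.4 in HSC-3 and of 10.3 to 11.6 in KOSC-2 except for 0 Gy replicate 1, which has low enrichment and stood at 30. The lines did not overlap. It was thus ranked higher by fold in the line in which it was shorter. Among the differences below 0, those with the smallest p were -19.94 at chromosome 2, 9346311 to 9348452, -14.89 at chromosome 4, 78077674 to 78079675 and -11.83 at chromosome 7, 24795206 to 24797699. None passed the threshold.

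The rank of the summit pileup, a measure chosen after seeing the data, separated the lines in many regions. It passed the limma threshold in 20 broad regions, 8 of them higher (10.5% of all regions) and 12 lower (10.4% of all regions) in HSC-3. These 20 are 18.5% of the broad regions, close to the 20.9% of all 12485 regions that passed, so the count says nothing particular about the broad regions. Pileup takes no account of the local background, and more copies of a chromosome segment and more open chromatin cannot be told apart from it.

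The most different summit was again chromosome 3, 143689884 to 143692235. Its pileup stood at percentiles of 46.3, 32.4, 24.5 and 26.2 in HSC-3 and of 96.3, 92.2, 94.8 and 96.4 in KOSC-2, a difference of -62.61 points with a standard error of 4.5 (limma, adjusted p = 0.00356). The 10 kb window around it held 107, 95, 110 and 36 reads in HSC-3 and 692, 493, 500 and 606 reads in KOSC-2. Relative to the library median this is a log2 difference of -2.17, so summit and surroundings were both lower in HSC-3, and the rank of its fold, which sets the one against the other, was 26.85 points higher there (adjusted p = 0.354).

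A pair of regions on chromosome 11 had the same kind of difference. At chromosome 11, 101980555 to 101983052 the summit held 30, 40, 44 and 25 reads in HSC-3 and 122, 116, 95 and 116 reads in KOSC-2 (difference in percentile -38.80, limma adjusted p = 0.00422), and the reads in the window differed by -1.35 on the log2 scale relative to the library medians. At chromosome 11, 95522460 to 95524467 it held 42, 54, 62 and 26 reads in HSC-3 and 182, 148, 147 and 164 reads in KOSC-2 (difference -25.15, adjusted p = 0.0146), with -1.36 in the window. Neither differed in relative covered length past the threshold (adjusted p = 0.129 and 0.0913).

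Other regions with lower summits in HSC-3 lay on chromosomes 1, 2, 4, 8, 11, 13 and 22. At chromosome 22, 41032205 to 41034596 the pileup stood at percentiles of 9.47, 41.6, 16.5 and 48.2 in HSC-3 and of 85.9, 77.4, 61.0 and 81.8 in KOSC-2 (difference -47.60, limma adjusted p = 0.0257). At chromosome 2, 9346311 to 9348452 the percentiles were 46.3, 14.3, 30.8 and 12.6 in HSC-3 and 82.9, 73.1, 43.9 and 66.5 in KOSC-2, where the highest HSC-3 value overlapped the lowest KOSC-2 value (difference -40.60, adjusted p = 0.0292).

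The 8 summits ranked higher in HSC-3 lay on chromosomes 4, 5, 6, 8, 9 and 14. At chromosome 6, 54711052 to 54713428 the pileup stood at percentiles of 91.2, 92.7, 97.4 and 95.6 in HSC-3 and of 62.6, 68.9, 78.4 and 81.8 in KOSC-2 (difference 21.30, limma adjusted p = 0.0147). At chromosome 8, 74205767 to 74207770 they were 94.0, 95.5, 96.7 and 96.3 in HSC-3 and 83.5, 81.3, 66.5 and 71.6 in KOSC-2 (difference 19.92, adjusted p = 0.0164). The largest differences were 34.38 at chromosome 9, 21994040 to 21996069 (adjusted p = 0.043) and 34.37 at chromosome 4, 174089209 to 174091270 (adjusted p = 0.018). On chromosome 9, 21994040 to 21996069 was not longer in HSC-3: it was covered over 1366, 1569, 1510 and 1006 bp there and over 1737, 1438, 1718 and 1624 bp in KOSC-2.

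**Figure D5:**
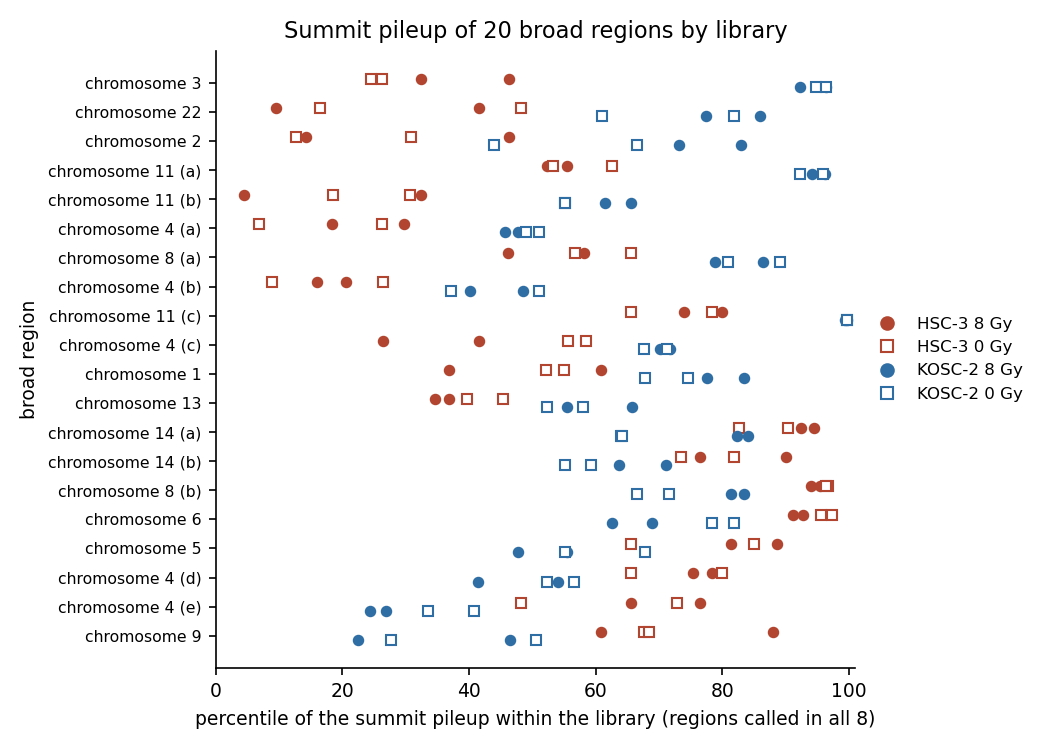
Percentile of the summit pileup within each library (horizontal axis, 0 to 100, among the 12485 regions called in all 8 libraries) for the 20 broad regions that passed the limma threshold between the lines, ordered by the difference; a letter tells apart regions on the same chromosome. HSC-3 is red and KOSC-2 blue, 8 Gy filled and 0 Gy open. The lines do not overlap in the chromosome 3 region at the top, with 24.5 to 46.3 in HSC-3 and 92.2 to 96.4 in KOSC-2.

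Reads in the 10 kb window moved with these ranks. Relative to the library median, the 4 values of each line did not overlap in 9 broad regions with more reads in HSC-3 (13.8% of all regions) and in 16 with fewer (11.6% of all regions). All 12 regions with a lower summit rank in HSC-3 had a difference in window reads between -2.17 and -0.33 on the log2 scale, and all 8 with a higher rank had one between 0.29 and 0.86. These regions were picked by their summit rank, and the window contains the summit and the region itself. The shared direction thus follows in part from the choice and is no separate evidence.

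The second comparison was between irradiated and unirradiated cells. No broad region changed its relative covered length between 8 and 0 Gy at the threshold (limma, 0 of 108, and 0.0% of all regions passed). At an unadjusted limma p under 0.05, 7 broad regions (6.48%) and 4.53% of all regions were counted. The median difference was 0.08 on the log2 scale in the broad regions and -0.02 in all regions. Covered length and merged width come from the same peaks, and KOSC-2 8 Gy replicate 1 alone set 67 of the 216 outer edges. The dose differences of the broad regions are thus not independent of how the regions were chosen. Within HSC-3 the median difference was 0.12 and within KOSC-2 0.02, with 0 broad regions past the threshold in either line. At an unadjusted limma p under 0.05 there were 14 (13.0%) in HSC-3 and 1 (0.926%) in KOSC-2, against 6.06% and 3.04% of all regions. With 1 library left out at a time, the median over both lines ran from -0.0 (without HSC-3 0 Gy replicate 2) to 0.16 (without HSC-3 0 Gy replicate 1). Without the 3 libraries of lowest enrichment it was -0.01 in the broad regions and in all regions.

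The regions with the smallest p for dose had these values. Chromosome 11, 32913949 to 32916093 was covered over 1174, 1782, 1894 and 1745 bp at 8 Gy (HSC-3 replicates 1 and 2, then KOSC-2 replicates 1 and 2) and over 839, 317, 1503 and 1209 bp at 0 Gy in the same order. All 8 Gy values exceeded the 0 Gy values of the same line, and the log2 difference was 0.89 (limma, adjusted p = 1.0, unadjusted p = 0.000873). Its adjusted limma p was 0.03 with the widest peak in place of all bases and 0.0108 in the weakly based fit without the 3 libraries of lowest enrichment. Chromosome 1, 78353749 to 78355751 also differed by 0.89 and chromosome 14, 21150449 to 21152823 by 0.43, and neither passed under any alternative tried. Among the differences below 0, those with the smallest p were -0.57 at chromosome 7, 55086269 to 55088685, -0.38 at chromosome 7, 20369161 to 20371413 and -0.22 at chromosome 1, 233749281 to 233751291, all with an adjusted limma p of 1.0.

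Ranks gave no call by dose either. For the rank of the fold, limma passed 0 broad regions and 0 of all regions, with 3 broad regions and 4.95% of all regions at an unadjusted p under 0.05. For the rank of the pileup it also passed 0 of both, with 6 broad regions and 8.1% of all regions at an unadjusted p under 0.05. Among the regions named for the smallest p, the largest differences in fold rank were 24.79 points at chromosome 6, 128840158 to 128842372 and -23.39 points at chromosome 3, 178864990 to 178867150 (limma, adjusted p = 0.998 and 0.966).

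The dose difference was also compared between the lines. For covered length, limma passed 0 broad regions and 0 of all regions as differing in their response between HSC-3 and KOSC-2, with 5 broad regions and 3.68% of all regions at an unadjusted p under 0.05. The smallest p was at chromosome 7, 24795206 to 24797699, covered in HSC-3 over 1587 and 1839 bp at 8 Gy and 1070 and 893 bp at 0 Gy, and in KOSC-2 over 1352 and 1368 bp at 8 Gy and 1497 and 1741 bp at 0 Gy. The doses did not overlap in either line and lay in opposite order, a difference of 1.10 on the log2 scale (limma, unadjusted p = 0.00294, adjusted p = 1.0). This region was picked for the smallest p among the 108, and covered length comes from the same peaks that chose the regions. Its order of doses is thus no independent evidence. A missed threshold with 2 libraries per group does not show that the broad regions were unaffected by irradiation.

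Together the broad regions held a small share of the bases under peaks in any library. This share of all bases under peaks on chromosomes 1 to 22 was 1.12, 0.712, 0.748 and 0.84% in HSC-3 (both 8 Gy libraries, then both 0 Gy libraries, by replicate number) and 0.706, 0.745, 0.838 and 0.724% in KOSC-2. The 3 highest shares belonged to the 3 libraries of lowest enrichment. The share is counted from the same peaks that chose the regions, so neither of the 2 comparisons below is independent of that choice. The mean was 0.854 ± 0.183% in HSC-3 and 0.753 ± 0.0588% in KOSC-2 (SD, n = 4 each), a difference of 0.101 percentage points that was within the spread of the libraries (exact two-sided permutation test, p = 0.343, adjusted 0.686 over the 2 comparisons of the share). It was -0.0296 points without the 3 libraries of lowest enrichment. The share was 0.82 ± 0.198% at 8 Gy and 0.787 ± 0.0605% at 0 Gy (SD, n = 4 each), a difference of 0.0326 points (exact two-sided permutation test within lines, p = 0.944, adjusted 0.944, smallest possible 0.0556), which was -0.0689 without the HSC-3 8 Gy library replicate 1.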

How the data were processed

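ATAC-seq was done on 8 libraries, 2 for each cell line and dose, grouped as the labels give them. The deposited data are a headerless narrowPeak list per library. MACS2 2.2.6, deepTools, SAMtools 1.9, Bowtie2 2.3.4.2, FastQC 0.11.7 and the build hg19 appear in the submitters' processing notes, with no roles or settings. Not given in the sources used here are duplicate removal, blacklists and the Tn5 shift. For each peak the authors deposited a score (an integer), the fold at the summit as a ratio to the library's own background, −log10 values of p and q, and the summit position. Fold and p were used to rank and describe regions within a list and to recover reads, as follows.

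Pileup and background were solved from fold and p, taking 300 bp fragments and a 10 kb window, and 100% of peaks gave a whole pileup within 0.0001 of the −log10 p. Peaks outside chromosomes 1 to 22 (8191 of 309404, 2.65%) were left out. The covered length, as log2 relative to the library median over 12485 regions, and the percentile of the strongest fold were fitted with limma 3.58.1 in R 4.3.3 on the 4 groups, which share an estimate of the spread, with Benjamini-Hochberg adjustment and a threshold of 0.05. The share of covered bases was compared by exact permutation tests. Other steps ran in Python 3.11.15 (scipy 1.17.1, matplotlib 3.10.9, pandas 2.3.3, numpy 2.4.6), and the limma step was tested on simulated data.

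Depth is given as background reads per 10 kb, since read totals were not used here, and no counting interval was computed. Members and lists were chosen with earlier results of these data known. Regions were named by rule: the 10 widest, the 5 highest by fold percentile, the 5 longest and 5 shortest by mean covered length, the 3 members just inside and the 3 regions just outside the width limit, and per contrast the 5 called, or else the 3 nearest, in each direction. Regions named beyond this were picked with their values in view, and the pileup rank and the fit without 3 libraries were added after seeing the data. The alternatives comprised other width limits, a −log10 q of at least 5, lists of 21955 peaks each, no centring, the widest peak, other ranks, leaving out each library, and a replicate block. The planned gene lists, cell type markers and sequence motifs need hg19 annotation or sequence and are not analysed here.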

Additional observations from a re-analysis of the deposited data

Results flagged for a closer look

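In KOSC-2, the 8 Gy library replicate 1 stood apart from the other 3. It covered a median of 92.2% of a broad region, against 74.9% in the 8 Gy library replicate 2 and 76.8 and 77.7% in the 0 Gy libraries. Of 14 sets of 4 libraries examined (7 measures in each line), this was the only set with a library far from the rest. Chance gives about 1 such set in 20, so 1 flagged set among 14 is not more than chance may give. The same library had the longest list (50448 peaks), set 67 of the 216 outer edges, and 37 of the 108 regions did not meet the rule without it. The percent covered is thus taken of a merged width that this library often set, and the flag is not independent of the choice of regions.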

How the results depend on the processing

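The number of broad regions was 1047 with a limit of 1500 bp, 1 with 3000 bp, 0 where the mean covered length had to reach 2000 bp, 24 where every library had to cover 50% of the region, and 71 to 120 without each library in turn. Broad regions that passed between the lines on covered length (4) numbered 1 without centring, 7 with the widest single peak (1 of the 4 among them), 4 with lists of equal length (1 of the 4 among them), 10 without the 3 libraries of lowest enrichment (all of the 4 among them, and 867 of all regions), 1 with a limit of 3000 bp, and 0 to 12 without each library in turn. Without centring the median line difference of all regions was -0.26, against 0.08. For dose, 1 passed with the widest peak (1 of all regions) and 1 without the 3 libraries (94 of all). For the difference in dose response, 2 passed without the 3 libraries (64 of all). For the rank between the lines (0), 10 passed with the −log10 p (1169 of all 12485) and 20 with the pileup (2604 of all). The line difference in share (0.101) was -0.082 with lists of equal length, -0.00315 with a limit of 3000 bp, -0.0296 without the 3 libraries and 0.00636 to 0.129 without each library in turn, and the dose difference (0.0326) ran from -0.0689 to 0.122. The cause of these changes was not tested. Where a library left out leaves a group with 1, that library is assumed to vary like the other groups. The limma fits that left out libraries kept the 108 broad regions merged from all 8 lists. The numbers of broad regions and the shares were instead taken after merging the remaining lists anew. The fit without KOSC-2 8 Gy replicate 1 thus still held the 37 regions that did not meet the rule without it.

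Named regions kept their direction and side of the threshold in 402 of 442 recomputations, 25 lost a call, 11 gained one and 4 turned. Only the 4 regions called between the lines on covered length had a call to lose, so all 25 losses were theirs. Named regions with no call could not lose one, so the 402 are no measure of how stable those 4 calls were. The line difference at chromosome 2, 178128122 to 178130207 turned to -0.02 without centring and to -0.02 with the widest peak. With the pileup, the line rank at chromosome 14, 60714656 to 60716709 turned to -0.4 and the dose rank at chromosome 7, 26239831 to 26241942 to 0.58. Replicate numbers did not pair the libraries (correlations of -0.14 to 0.07 between groups); with a replicate block, 5 broad regions passed between the lines, the share difference of 0.101 had an exact p of 0.389, and no count moved by over 1.5 times.

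Lists called per library limit the precision, since a base under no peak is not shown to be closed. Covered lengths were shortest in the 2 libraries with the shortest lists.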
